A study of Vitis vinifera with 6 samples.

Results

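The phenylalanine ammonia-lyase (PAL) genes of grapevine were followed across 6 microarrays of young leaves. The family was taken as a list of 10 gene identifiers, of which 8 lie in tandem on a single scaffold of chromosome 16 (VIT_16s0039) and 2 are separate copies on chromosomes 13 (VIT_13s0019g04460) and 8 (VIT_08s0040g01710). The list gives the family name and the identifiers give the chromosome, and coordinates were not used here. All 10 of 10 genes were found among the 34369 non-control probes on the array, with 1 probe each. RNA came from *Vitis vinifera* cv Shiraz, from 3 OXNAC33 samples, which carry a *VviNAC33* overexpression transgene driven by the constitutive *CaMV* *35S* promoter, and 3 control samples without it, which per the methods are vector controls. Both groups were thus transgenic, regenerated from anther callus and grown in a greenhouse. Per the labels the leaves were picked when the phenotype began to show, although the study elsewhere places this comparison ahead of it, and each sample was a pool of leaves. Per the methods the OXNAC33 replicates were independent lines with a single transgene copy, but the labels do not tie a replicate number to a line or say which control plants were used, so that p-values measure the spread between these samples.

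PAL removes ammonia from phenylalanine to give cinnamic acid. This is the entry step from primary metabolism into phenylpropanoids, which include lignin, flavonoids and, in grapevine, the stilbene resveratrol. Plants carry several PAL genes, and in grapevine many of the copies sit side by side on a single chromosome. PAL and stilbene synthase transcripts are known to be induced together by wounding, ultraviolet light and pathogens in grapevine leaves.

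No PAL gene passed the test for a difference between OXNAC33 and control leaves. The members nevertheless varied widely between single arrays. Every tandem gene that was tested was highest on the array labelled OXNAC33 replicate 2. The lead over the next array was up to 3.24 on the log2 scale. Of all tested probes with a value on each array, 11.8% were highest on that array. The separate copy on chromosome 13 was instead lower on each OXNAC33 array than on each control array, as were 20.2% of those probes. For this copy OXNAC33 replicate 2 differed from control replicate 1 by only -0.07. Of the 10 members, 9 were bright enough to be tested with limma, and 0 of the 9 had an adjusted p under 0.05, where 1200 of 23907 probes tested on the whole array (5.02%) did. At an unadjusted p under 0.05 there was 1 of 9, against 27.3% of all probes tested, and the methods' t-test gave 0 of 9 at that level, against 24.3%.

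Levels are log2 processed intensities minus the 75th percentile on the same array, and a change is the OXNAC33 mean minus the control mean on that scale. Levels of different probes are not comparable, because each probe binds its target with its own efficiency. In bulk leaf RNA, fewer cells of a type and less RNA per cell cannot be told apart. Probe sequences were not used here, so signal shared between near-identical tandem genes cannot be told from separate expression. On each array 69.4% to 74.9% of probes were well above background and 0 were saturated. Of the probes called, 405 were higher (1.69% of those tested) and 795 lower (3.33%) in OXNAC33, which became 596 and 741 when arrays were scaled by their median and 621 and 364 when they were scaled by spike-in probes. The arrays were scanned in 2 sessions. Session 1 held control replicate 1 and OXNAC33 replicates 1 and 2, and session 2 held control replicates 2 and 3 and OXNAC33 replicate 3. As a check of the tissue, 6 of 8 leaf photosynthesis probes were above the 75th percentile on every array with a value, while both chloroplast carbonic anhydrase probes were below it on every array, 1 of them well above background on 0 arrays. Of the 7 tested photosynthesis probes 0 were called, 6 had a negative and 1 (*PsbP*) a positive change, and the groups overlapped for each. Among them the light-harvesting gene *LHCII type I CAB-1* read 7.64, 6.43 and 7.18 in controls and 4.63, 6.78 and 4.46 in OXNAC33, with OXNAC33 replicate 2 inside the control range. Both seed oil body markers were dim (-4.95 to -2.90) and their groups overlapped.

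The probe of *VviNAC33* (VIT_19s0027g00230) itself checks the labels. It read -5.22, -4.14 and -4.01 on control replicates 1, 2 and 3, and -0.54, -3.89 and -0.998 on OXNAC33 replicates 1, 2 and 3. The library labelled OXNAC33 replicate 2 thus lay just above the controls, and well under the other OXNAC33 arrays. It exceeded control replicate 1, of its own scan session, by 1.34. The study chose the lines used as replicates for their high *VviNAC33* expression. Its methods took the array RNA from the samples measured by qPCR. The low reading of this library departs from that choice. A wrong label and low expression in that sample cannot be told apart here. The change was 2.65 (SE 0.88, limma adjusted p = 0.116), and 3.69 without that array (limma adjusted p = 0.0198). On this array *VviNAC33* was thus near the control level, and the tandem PAL genes peaked there too. For these reasons the changes of the tested members and of the gene groups are given with and without it.

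**Figure D1:**
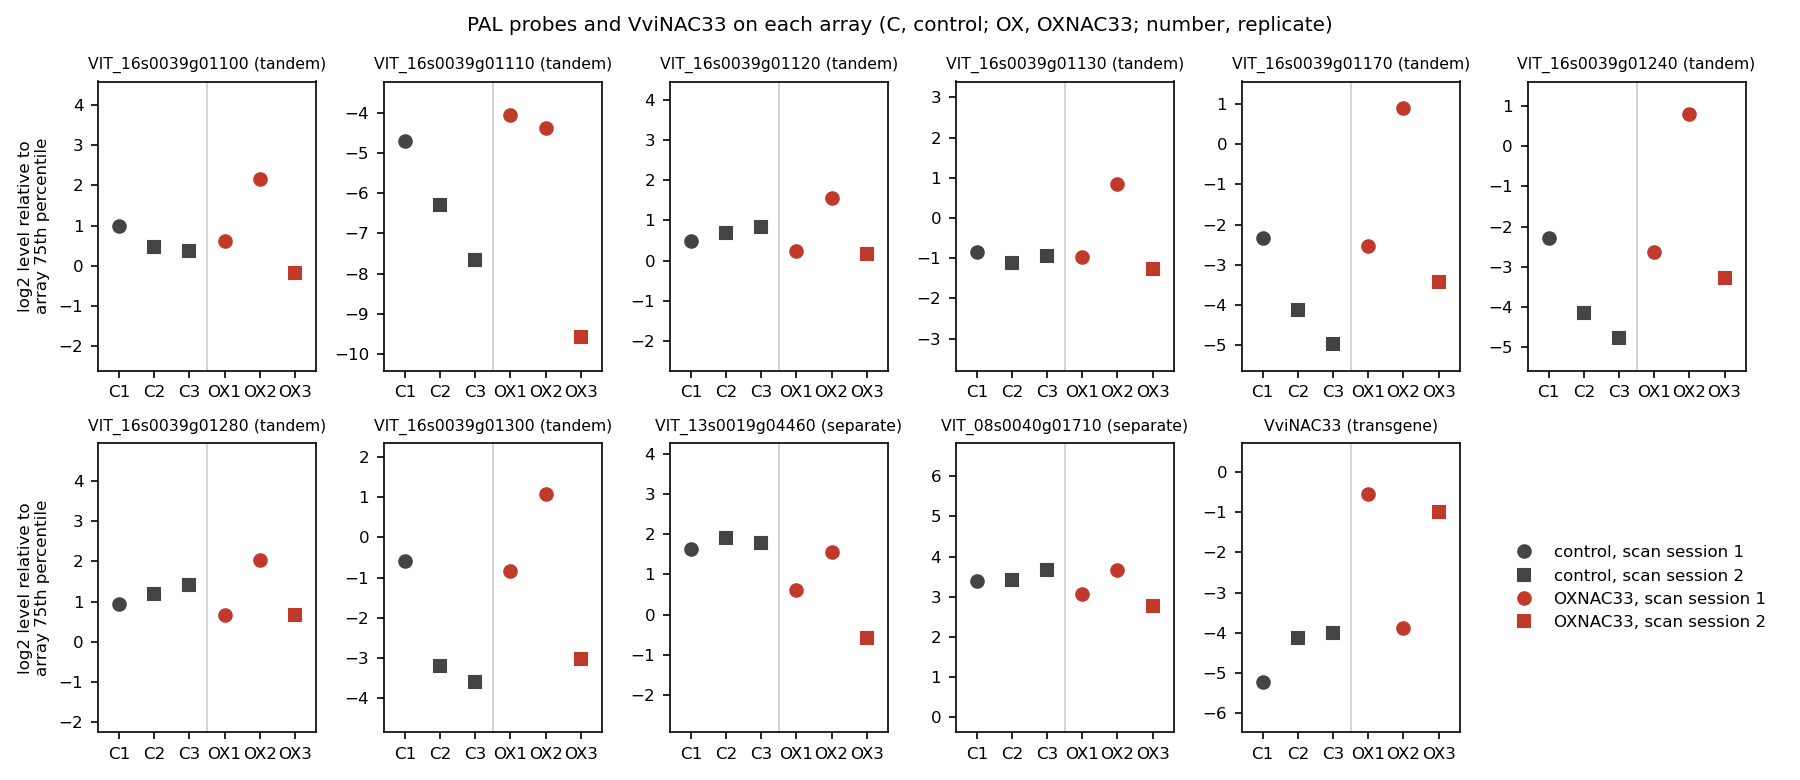
Level of each PAL probe and of *VviNAC33* on every array, in log2 units above or below the 75th percentile of all probes there. Black marks are controls (C), red marks OXNAC33 (OX), numbers are replicates and not plant lines, circles are scan session 1 and squares scan session 2; every vertical axis spans the same number of log2 units but is centred on its own probe. VIT_16s0039g01170 reached 0.90 on OXNAC33 replicate 2 against -4.98 to -2.35 on the controls, while *VviNAC33* on that array (-3.89) lay beside its controls.

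Among the tandem genes that were tested, 3 spanned a range of several log2 units. VIT_16s0039g01170 read -2.35, -4.12 and -4.98 on control replicates 1 to 3, and -2.53, 0.90 and -3.43 on OXNAC33 replicates 1 to 3. Only OXNAC33 replicate 2 stood above every control, and it exceeded OXNAC33 replicate 1, of the same scan session, 10.8-fold. The change of 2.13 had an SE of 1.20 (95% interval -0.75 to 5.0, limma adjusted p = 0.305) and was 0.84 without OXNAC33 replicate 2 (limma adjusted p = 0.549).

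VIT_16s0039g01240 followed almost the same course, at -2.29, -4.15 and -4.77 in controls and -2.64, 0.79 and -3.27 in OXNAC33. Its change was 2.03 (SE 1.15, limma adjusted p = 0.307), and 0.78 without OXNAC33 replicate 2. Once each was centred on its own mean, the values of this probe and of VIT_16s0039g01170 differed by at most 0.18 on any array, so that the pair may report a shared signal.

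VIT_16s0039g01300 was the tandem gene most clearly split by scan session. It read -0.58 on control replicate 1 but -3.20 and -3.59 on control replicates 2 and 3, and -0.85, 1.08 and -3.02 on OXNAC33 replicates 1 to 3. All session 1 arrays lay above all session 2 arrays, in both groups. With the session as a term beside the group, session 2 was lower by 2.98 (limma unadjusted p = 0.0018, adjusted p = 0.0698), and the change between groups went from 1.53 (SE 1.19, limma adjusted p = 0.453) to 0.54 (limma adjusted p = 0.552). Single arrays moved it as far, to 0.52 without OXNAC33 replicate 2 (limma adjusted p = 0.801) and 2.58 without OXNAC33 replicate 3 (limma adjusted p = 0.225).

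This order of sessions, with every session 1 array above every session 2 array, was found for 4 of the 9 tested members (VIT_16s0039g01100, VIT_16s0039g01170, VIT_16s0039g01240 and VIT_16s0039g01300) and for 10.7% of all tested probes with a value on each array. The session term itself was called for 1.59% of all tested probes and for none of the members. For VIT_16s0039g01170, VIT_16s0039g01240 and VIT_16s0039g01300, control replicate 1 lay nearer to OXNAC33 replicate 1 than to either of the other controls. Session 1 held a single control and also OXNAC33 replicate 2. The session, differences between single samples and that array therefore cannot be told apart here. The part of the session in the result was not tested further than by the session term.

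The remaining tandem genes that were tested varied less. VIT_16s0039g01100 read 0.98, 0.46 and 0.36 in controls and 0.62, 2.16 and -0.19 in OXNAC33, a change of 0.26 (SE 0.58, limma adjusted p = 0.807). VIT_16s0039g01130 read -0.85, -1.13 and -0.94 in controls and -0.98, 0.85 and -1.26 in OXNAC33, a change of 0.51 (SE 0.55, limma adjusted p = 0.586). In both, OXNAC33 replicate 2 alone stood above the controls and OXNAC33 replicate 3 was the lowest array. Without replicate 2 the changes turned negative, to -0.39 (limma adjusted p = 0.512) and -0.14 (limma adjusted p = 0.709).

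VIT_16s0039g01120 and VIT_16s0039g01280 again moved as a pair, with centred values within 0.09 of each other on all 6 arrays. The first read 0.49, 0.68 and 0.84 in controls and 0.24, 1.55 and 0.17 in OXNAC33. The second read 0.95, 1.18 and 1.42 in controls and 0.66, 2.04 and 0.66 in OXNAC33. In each, OXNAC33 replicate 2 was above all the controls and the other OXNAC33 arrays were below all of them, so that the group means were nearly equal (changes of -0.02 and -0.06, limma adjusted p = 0.98 and 0.94). The sign of both changes turned when arrays were scaled by their median or by spike-in probes. Without OXNAC33 replicate 2 the changes were -0.47 (limma adjusted p = 0.204) and -0.52 (limma adjusted p = 0.195).

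The eighth tandem gene, VIT_16s0039g01110, was too dim to be tested. It was well above background on 2 of 3 arrays in each group, at -4.71, -6.29 and -7.67 in controls and -4.06, -4.37 and -9.59 in OXNAC33. Unlike the other tandem genes it was highest on OXNAC33 replicate 1, and its session 1 arrays again lay above its session 2 arrays.

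Over the tandem scaffold, 7 of the 8 genes were thus highest on OXNAC33 replicate 2, as were 11.8% of all tested probes with 6 values. The lead over the next array was more than 1 on the log2 scale for 5 of the 8, which held for 1.8% of all such probes. These genes are neighbours and may share probe signal, so they do not count as independent observations.

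**Figure D2:**
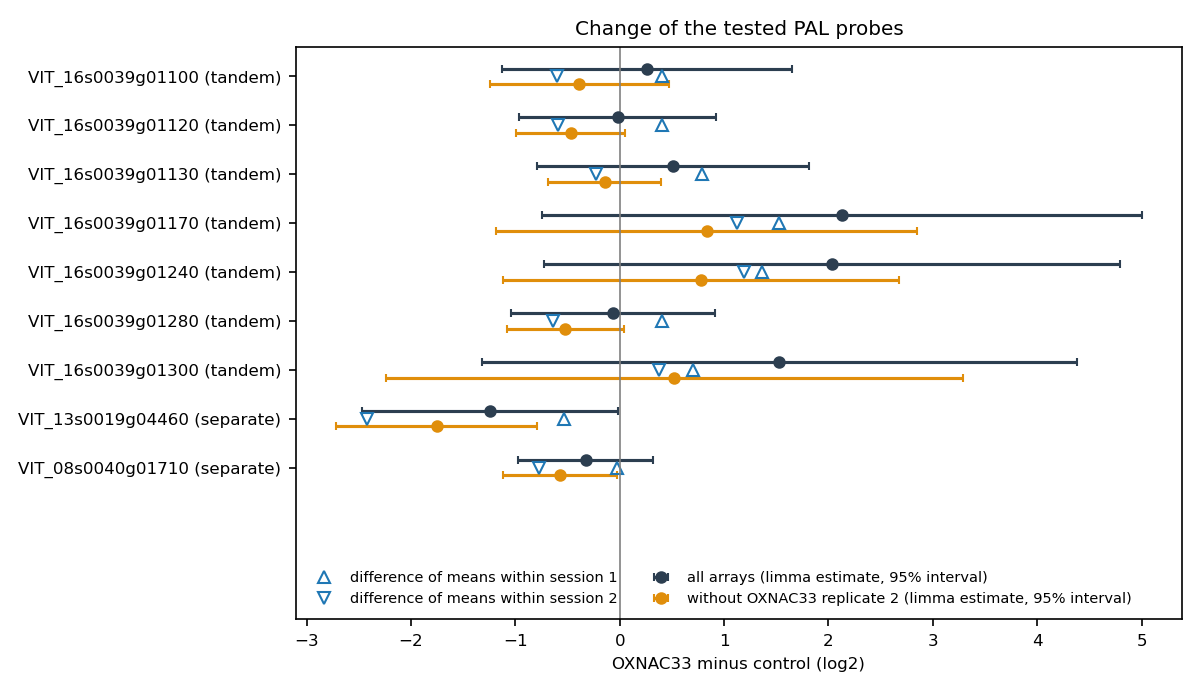
Change of the 9 tested PAL probes, in log2 units, positive where OXNAC33 was higher. Dark points are the limma estimate over all 6 arrays and orange points that without OXNAC33 replicate 2, each with its 95% interval; open triangles are the plain differences of means within scan session 1 (pointing up) and session 2 (pointing down). With all arrays the interval of VIT_13s0019g04460 (-2.47 to -0.02) was the one that did not cover 0, and without OXNAC33 replicate 2 that of VIT_08s0040g01710 (-1.12 to -0.03) did not either.

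Neither separate copy was highest of all arrays on OXNAC33 replicate 2, but among the OXNAC33 arrays each was highest there. VIT_13s0019g04460 read 1.62, 1.91 and 1.79 in controls and 0.61, 1.56 and -0.57 in OXNAC33. Every OXNAC33 array lay below every control, as in 20.2% of all tested probes with 6 values, although OXNAC33 replicate 2 differed from control replicate 1 by only -0.07. The change was -1.24 (SE 0.51, 95% interval -2.47 to -0.02, unadjusted p = 0.0477), which did not pass after adjustment (limma adjusted p = 0.178). Without OXNAC33 replicate 2 it was -1.75 (SE 0.38, limma adjusted p = 0.0478), and this was the 1 member called lower in that fit, where 6.53% of all probes tested were called lower and 4.2% higher. Without OXNAC33 replicate 3 it was -0.69 (limma adjusted p = 0.268). Within session 1 the difference was -0.54 and within session 2 -2.42.

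VIT_08s0040g01710 was the steadiest member, at 3.38, 3.42 and 3.68 in controls and 3.06, 3.66 and 2.78 in OXNAC33. OXNAC33 replicates 1 and 3 were below all the controls and replicate 2 was within their range. The change was -0.33 (SE 0.27, 95% interval -0.98 to 0.32, limma adjusted p = 0.483), and -0.57 (SE 0.22, limma adjusted p = 0.154) without OXNAC33 replicate 2. Once centred on its own mean, this probe differed from tandem VIT_16s0039g01120 and VIT_16s0039g01280 by 0.27 each (root mean square over the arrays). Those tandem genes lay farther, by 1.64 and 1.67, from tandem VIT_16s0039g01170.

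A further gene that the study annotated as PAL, VIT_06s0004g02620, is outside the list of members and belongs to a list that the study chose on these samples. It read 0.42, 0.27 and 0.31 in controls and -0.90, -0.96 and -3.50 in OXNAC33. Its level on every OXNAC33 array, replicate 2 included, was below every control, as in 20.2% of all tested probes with 6 values. With all arrays its change was -2.12 (SE 0.69, limma unadjusted p = 0.0192, limma adjusted p = 0.11). The change was -2.54 without OXNAC33 replicate 2 and -1.26 without OXNAC33 replicate 3, its lowest array. The PAL annotation of this gene came from the binding data of the study. Since the gene is also in a list chosen on these samples, its direction is not independent evidence.

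To set the tandem genes beside the separate copies, each probe was expressed as its deviation from its own control mean and averaged within each set. The 7 tested tandem genes averaged 0.70, -0.25 and -0.45 on control replicates 1 to 3 and 0.44, 2.56 and -0.26 on OXNAC33 replicates 1 to 3. The separate copies averaged -0.13, 0.03 and 0.10 in controls and -0.79, -0.03 and -1.53 in OXNAC33. The sets thus parted most on OXNAC33 replicate 2, where the tandem genes were above their control level and the separate copies were at theirs. Single tandem genes differed widely there, with deviations from 0.86 to 4.71, beside -0.22 and 0.16 for the separate copies.

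The tandem set minus the separate set was 0.83, -0.28 and -0.55 on the controls and 1.23, 2.58 and 1.27 on OXNAC33 replicates 1 to 3. Each OXNAC33 array exceeded each control array, but OXNAC33 replicate 1 exceeded control replicate 1, of its own session, only by 0.40. The mean difference was 1.70 with all arrays and 1.25 without OXNAC33 replicate 2, 1.08 within session 1 and 1.69 within session 2. On OXNAC33 replicates 1 and 3 the difference came mainly from the lower separate copies. No p is given, since genes of a family are not replicates.

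**Figure D3:**
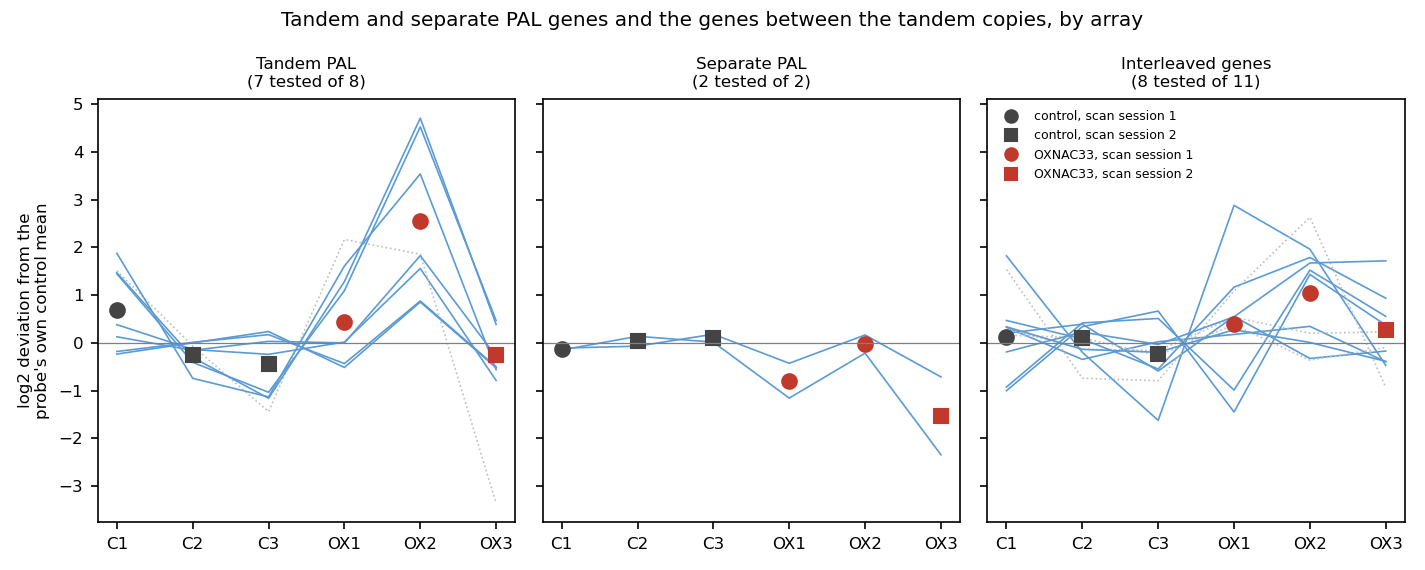
Deviation of each probe from its own control mean (log2) on every array, for the tandem PAL genes, the separate PAL genes and the other genes whose identifiers fall between the tandem copies. Thin blue lines are tested probes and dotted grey lines probes too dim to test, each joining the values of 1 probe in an arbitrary array order; large marks are means over the tested probes (black control, red OXNAC33, circles session 1, squares session 2). On OXNAC33 replicate 2 the means were 2.56, -0.03 and 1.05.

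The other genes that lie between the tandem PAL copies were examined for the same pattern. There were 11 such identifiers on the array, of which 8 were tested and 0 called (limma), where 5.02% of all probes tested were called. The files name none of them. Their median change was 0.24 (0.07 without OXNAC33 replicate 2), beside -0.01 over all tested probes, and 4 of the 8 were highest on OXNAC33 replicate 2. Their mean deviation was 0.39, 1.05 and 0.27 on OXNAC33 replicates 1 to 3.

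Groups did not overlap for 2 of the 8, both higher in OXNAC33, beside 14.8% of all tested probes. VIT_16s0039g01200 read -1.27, -1.66 and -2.29 in controls and -0.57, 0.05 and -0.80 in OXNAC33 (change 1.30, SE 0.35, limma adjusted p = 0.0751). VIT_16s0039g01260 read -3.43, -3.02 and -3.28 in controls and -2.70, -1.57 and -1.52 in OXNAC33 (change 1.31, SE 0.35, limma adjusted p = 0.0768). In both, all OXNAC33 arrays and not only replicate 2 stood above the controls, and without replicate 2 the changes were 1.05 and 1.13. They were named after their values were seen.

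The enzymes before and after PAL were described from a list of 62 genes that the study annotated in its atlas, binding or transient data, of which 30 were bright enough to test. None of the 30 passed (limma), where 5.02% of all probes tested did, and 4 had an unadjusted p under 0.05, against 27.3%. Their median change was 0.27 with all arrays, and it was not computed for the whole list without OXNAC33 replicate 2. Among the 30 were 10 stilbene synthase genes, whose median change was 1.77 with all arrays and 0.06 without that array. Without OXNAC33 replicate 2 there was 1 called lower, where 6.53% of all probes tested were. It was the cinnamoyl-CoA reductase gene VIT_02s0012g01570, which makes lignin precursors.

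The phenylalanine supply genes, which act upstream of PAL in the shikimate route, had small changes. All 5 were tested and their median change was -0.18 (-0.21 without OXNAC33 replicate 2), with 1 of 5 highest on OXNAC33 replicate 2. The gene with the lowest p was the shikimate dehydrogenase gene VIT_14s0030g00650 (change -0.73, SE 0.39, limma adjusted p = 0.275), followed by chorismate synthase VIT_13s0019g04190 (-0.18) and shikimate kinase VIT_16s0039g01380 (0.28), which lies farther along the same scaffold as the tandem PAL genes.

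After PAL, coumaric acid is activated by 4-coumarate-CoA ligase. The tested ligase gene, VIT_16s0039g02040, read 2.15, 1.08 and 1.31 in controls and 0.80, 1.82 and -0.02 in OXNAC33 (change -0.64, SE 0.51, unadjusted p = 0.251, limma adjusted p = 0.463). It was highest on control replicate 1 and lowest on OXNAC33 replicate 3, and the groups overlapped. Without OXNAC33 replicate 2 the change was -1.12 (limma adjusted p = 0.153). The second ligase gene, VIT_11s0052g01110, was too dim to test.

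In the lignin and lignan branch 10 of 24 genes were tested, with a median change of 0.13 (-0.09 without OXNAC33 replicate 2). Of these 10, 1 was highest on OXNAC33 replicate 2, and over all 24, tested or not, 7 were, 4 of them by more than 1 on the log2 scale. The lead was 3.90 for the dirigent gene VIT_06s0004g01020, which was too dim to be tested. A laccase, an enzyme that couples lignin monomers, read -3.76, -4.15 and -4.48 in controls and -3.08, -3.26 and -3.75 in OXNAC33 (VIT_00s0413g00010, change 0.77, SE 0.28, limma adjusted p = 0.14). VIT_02s0012g01570 read 0.93, 0.44 and 1.15 in controls and -1.16, 0.63 and -0.98 in OXNAC33, with replicate 2 again among the controls (change -1.34, SE 0.50, limma adjusted p = 0.147). The cinnamyl alcohol dehydrogenase gene VIT_13s0101g00260, which makes monolignols, had a change of 0.48 (SE 0.22, limma adjusted p = 0.22). Among the 10 tested genes 6 changes were positive and 4 negative.

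The stilbene synthases, which make resveratrol, had the same peak as the tandem PAL genes and a larger one. All 24 of 24 probes on the list, tested or not, were highest on OXNAC33 replicate 2, as were 11.8% of all tested probes with 6 values. The lead over the next array was 1.04 to 6.03, and a lead of more than 1 held for 1.8% of all such probes. Both ends of that range came from the 14 probes too dim to test. Over the tested stilbene synthase probes the lead was 3.59 to 4.92. The 10 tested probes averaged -0.21, 0.62 and -0.41 above their control means on control replicates 1 to 3, and -0.84, 5.22 and 0.93 on OXNAC33 replicates 1 to 3. Stilbene synthase genes are also close relatives of each other, so their probes may share signal.

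VIT_16s0100g00800, the stilbene synthase gene with the lowest p, read -2.79, -2.23 and -3.41 in controls and -3.02, 2.25 and -1.89 in OXNAC33 (change 1.92, SE 1.28, limma adjusted p = 0.382). The next were VIT_16s0100g00990 (change 2.0, limma adjusted p = 0.422) and VIT_16s0100g00940 (change 2.33, limma adjusted p = 0.424). The median change of the 10 was 1.77 with all arrays and 0.06 without OXNAC33 replicate 2, so this array carried nearly all of that median. The other OXNAC33 arrays were not both at the control level. They went opposite ways, with mean deviations of -0.84 on replicate 1 and 0.93 on replicate 3.

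In the flavonoid branch 4 of 7 genes were tested, with a median change of -1.03 (-1.27 without OXNAC33 replicate 2). Of these, 3 changes were negative, and 2 genes were lower on every OXNAC33 array than on every control array. That order held for 20.2% of all tested probes with a value on each array, and none of the 4 genes was called. All 3 untested genes had positive changes, and 1 of them, the flavanone 3-dioxygenase gene VIT_02s0025g02960, led on OXNAC33 replicate 2 by 2.23. Chalcone synthase, which competes with stilbene synthase for the same substrates, read 3.64, 3.53 and 4.02 in controls and 2.37, 2.28 and -0.88 in OXNAC33 (VIT_14s0068g00920, change -2.48, SE 0.86, limma adjusted p = 0.125). Chalcone isomerase, the next enzyme, read -0.84, -1.09 and -0.35 in controls and -1.48, -1.57 and -2.28 in OXNAC33 (VIT_07s0151g01060, change -1.02, SE 0.31, limma adjusted p = 0.0955). Leucoanthocyanidin reductase 1, which makes catechin, had a change of -1.04 (VIT_01s0011g02960, SE 0.44, limma adjusted p = 0.19). In all 3 the lowest array was OXNAC33 replicate 3, as for 7 of the 10 PAL members (5 tandem and 2 separate) and VIT_06s0004g02620. The share of all probes that were lowest on that array was not computed. Over all tested probes the mean deviation was also lowest there (-0.14).

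**Figure D4:**
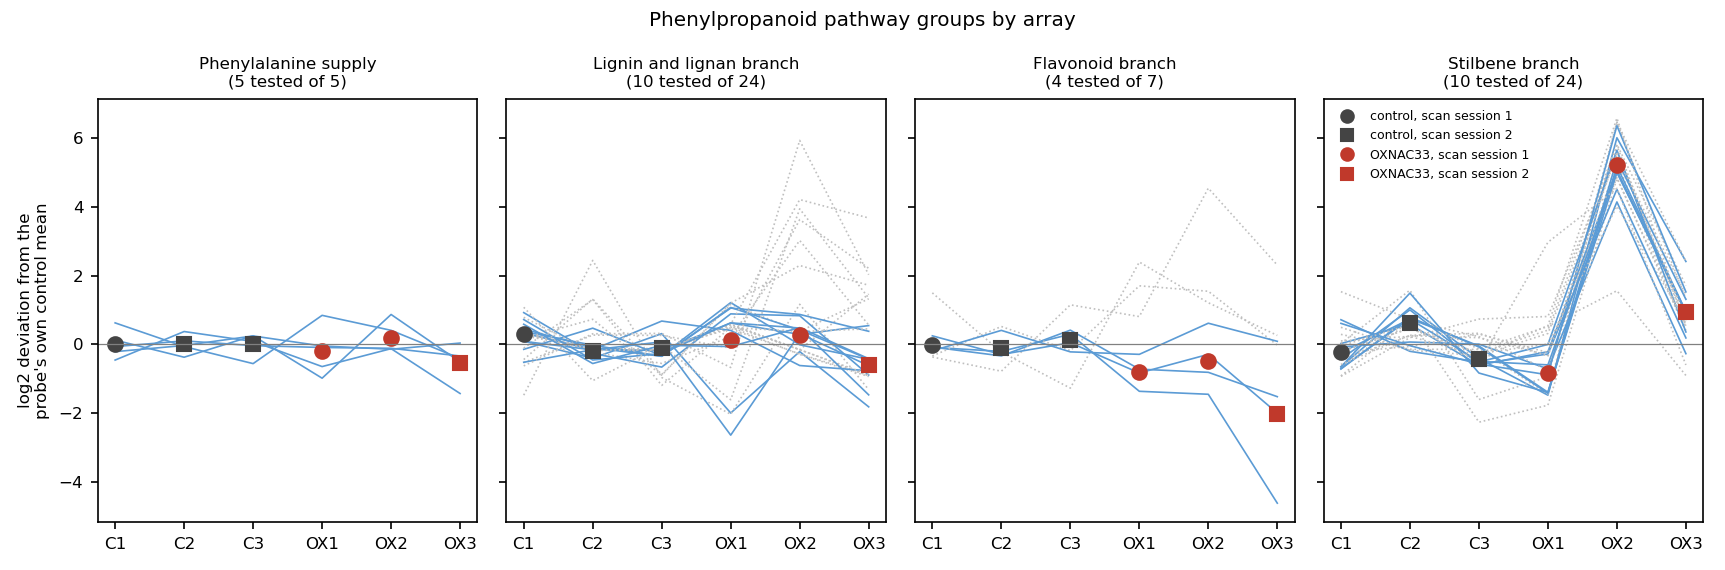
Deviation of each probe from its own control mean (log2) on every array, for the genes that supply phenylalanine and for the lignin and lignan, flavonoid and stilbene branches. Lines and marks are as described for the tandem and separate PAL genes: blue tested, dotted grey too dim to test, large marks the mean of the tested probes. The mean on OXNAC33 replicate 2 was 5.22 in the stilbene branch, against 0.18, 0.28 and -0.48 in phenylalanine supply, lignin and lignan, and flavonoids.

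Outside these lists, the probes whose course over the 6 arrays was closest to the mean of the tested tandem genes were VIT_12s0028g01630 and VIT_10s0003g03800, which the files do not name. Their root mean square differences from that mean were 0.21 and 0.22 on the log2 scale, the smallest of 23219 probes compared. VIT_12s0028g01630 read -4.77, -6.14 and -6.16 in controls and -4.82, -2.79 and -5.83 in OXNAC33. VIT_10s0003g03800 read -2.79, -3.73 and -4.12 in controls and -2.59, -0.98 and -3.48 in OXNAC33. Both were picked by this course, so their peak on OXNAC33 replicate 2 and their lower session 2 arrays follow from the choice. For comparison, the tested tandem genes themselves lay 0.40 (VIT_16s0039g01100) to 0.88 (VIT_16s0039g01170) from that mean.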

How the data were processed

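RNA of 3 control and 3 OXNAC33 leaf samples was labelled with Cy3 and hybridized by the authors to single-colour custom Agilent grapevine arrays. The deposited scanner files hold processed intensity on a linear scale, corrected for background and spatial trend by Feature Extraction 10.5.1.1 and not scaled between arrays. The authors also deposited scaled intensity values, used as an alternative. Processed intensity was log2 transformed and the 75th percentile of each array was subtracted. Outlier spots were dropped. The test took the 23907 probes that Feature Extraction marked well above background throughout at least 1 group and that had 2 or more values per group. It was a two-sided limma fit (version 3.58.1, R 4.3.3; lmFit, then eBayes) with p adjusted by Benjamini-Hochberg over these probes and a threshold of 0.05, after the script was tested on simulated data. The number of arrays limits the precision. The 75th percentile of intensity ranged from 773 to 1303.

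The members and gene lists were chosen with earlier results of these data known. Named are all 10 members, VIT_06s0004g02620, called pathway genes, up to 3 others per pathway group with the lowest unadjusted p, and the 2 probes closest to the tandem mean. Alternatives were other scalings, the authors' values, other filters, a session or replicate block, trend and robust eBayes, array weights, the methods' t-test and each array left out. Names of pathway genes are those of the study, and the RefSeq table used here matched 0 identifiers.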

Additional observations from a re-analysis of the deposited data

How the results depend on the processing

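With every array kept, the number of PAL members called was 0 in all 14 other fits, and the median change of the tested members ran from -0.10 (session block) to 0.45 (spike-in scaling). Leaving out each array in turn, the members called numbered 0 to 1, the pathway genes called 0 to 1 and the *VviNAC33* change ran from 2.01 to 3.69. Without OXNAC33 replicate 1 the pathway gene called was the laccase VIT_18s0122g00690 (limma adjusted p = 0.0498), a probe that was well above background on 0 of 3 controls and 2 of 3 OXNAC33 arrays and passed the filter only because the array left out was the one where it was dim. The *VviNAC33* change was 2.84 with spike-in scaling (limma adjusted p = 0.049). Scaling by the array median called 1 interleaved gene, VIT_16s0039g01200. The methods' t-test without adjustment called 1 pathway gene (VIT_07s0151g01060) and 2 interleaved genes; after adjustment it called none of them.

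Signs turned for genes with small changes. VIT_16s0039g01120 was 0.10 with the array median, 0.17 with spike-ins and 0.0053 with normexp on median signals, which was chosen after seeing the data, and -0.47 to 0.22 without each array. VIT_16s0039g01280 was 0.063 with the array median, 0.13 with spike-ins and -0.52 to 0.17 without each array. VIT_16s0039g01100 was -0.10 with the session block and -0.39 to 0.79 without each array, and VIT_16s0039g01130 was -0.14 to 0.91 without each array. The cause was not tested. The array median, spike-in and normexp settings moved the median of all probes to 0.11, 0.18 and -0.23.

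Over all probes, limma called 0 with the session block (6844 at an unadjusted p under 0.05), the replicate block (5997), no filter (6314) or normexp (5188), 1806 with trend and robust eBayes and 0 to 2554 without each array. The methods' t-test called 5805 without adjustment and 2 with it. Replicate numbers did not pair the arrays: deviations of same-numbered arrays correlated at 0.257, -0.221 and 0.185 over 23228 probes. With the replicate block the *VviNAC33* change was 2.65 (limma adjusted p = 0.152), the median member change 0.26, and 0 members, 0 pathway genes and 0 interleaved genes were called. The planned normexp on mean signals was not run, because the files give median signals.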
